A study of Mus musculus with 8 samples.

Results

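The nuclear genes of the respiratory chain and of ATP synthase were examined in hepatic macrophages of mice with acetaminophen liver injury. Members were taken by name: array rows with exactly 1 gene symbol beginning Nduf (a, b, c, s or v), Uqcr, Cox (4 to 8) or Atp5, or naming a subunit of succinate dehydrogenase (Sdha to Sdhd). Where a gene had several rows, the row with the highest 8-array mean stood for it. This gave 89 of the 22180 genes measured, 87 of them functional genes and 2 pseudogenes. The members fell into complex I (32 subunits), complex I assembly factors (8), complex II (4), complex III (7), complex IV (19) and ATP synthase (17). A further 9 names, among them Cox6c, Ndufb2, Ndufs6 and Uqcr10, occurred only on rows shared with another symbol and were left out. Of 13 mitochondrially encoded subunit genes, 0 were on a row with 1 symbol.

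All arrays came from male FVB/N mice aged 8 weeks that received 350 mg/kg acetaminophen, a drug that injures hepatocytes when overdosed, into the peritoneal cavity. Both groups received a recombinant protein through the tail vein 12 h earlier. The rTF group (4 arrays) was given 25 µg of transferrin, an iron carrier of plasma, and the rCPS1 group (4 arrays) 50 µg of carbamoyl phosphate synthetase 1, a mitochondrial enzyme of the hepatocyte urea cycle. Protein and dose therefore changed together and cannot be told apart, and mice without injected protein or without acetaminophen were not analysed here. Every sample title carries the same mouse number with a replicate number, so the labels do not settle whether the 4 samples of a group came from different mice. P-values therefore rest on how far these samples vary, and that variation may be technical. The comparison asks how the RNA of these cells differs between rCPS1 and rTF given before acetaminophen.

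The respiratory chain passes electrons from NADH (complex I) and succinate (complex II) through ubiquinone, complex III and cytochrome c to oxygen (complex IV). Complexes I, III and IV pump protons across the inner mitochondrial membrane, and ATP synthase uses the returning protons to make ATP. In macrophages, inflammatory activation is known to move metabolism towards glycolysis, with altered succinate oxidation and electron transport, while alternative activation relies more on oxidative phosphorylation. Many of the nuclear genes are known targets of NRF1, of the ETS factor GABP and of YY1.

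Promoter sequences are shown because many genes of these families are known targets of the same regulators. Of the 89 members, 72 had an entry in the RefSeq promoter table (GRCm38.p6). In the 250 bases before the start, searched on both strands, the NRF1 letters (GCGCA and GCGC with any 1 base between them) were found in 12 of 72 members (16.7%) and in 4.23% of all 27025 genes with an entry. The ETS letters CCGGAAG were found in 14 members (19.4%) against 7.83% of all genes, and the YY1 letters AAGATGGCG in 1 member, Atp5j (1.39% against 0.71%). Atp5h, Cox6a1 and Sdhd held both NRF1 and ETS letters. A match of letters is a description and not a measured binding site. From each complex with an NRF1 match, 1 member is printed 5′ to 3′ on the strand of the gene, which is the minus strand in each case, with the NRF1 letters of either orientation in capitals. Ndufa8 encodes an accessory subunit of complex I (chr2:36049339-36049588), Sdha the flavoprotein of complex II (chr13:74350241-74350490), Cox6a1 a subunit of complex IV (chr5:115348959-115349208) and Atp5g2 a c-ring subunit of ATP synthase (chr15:102671048-102671297).
Ndufa8: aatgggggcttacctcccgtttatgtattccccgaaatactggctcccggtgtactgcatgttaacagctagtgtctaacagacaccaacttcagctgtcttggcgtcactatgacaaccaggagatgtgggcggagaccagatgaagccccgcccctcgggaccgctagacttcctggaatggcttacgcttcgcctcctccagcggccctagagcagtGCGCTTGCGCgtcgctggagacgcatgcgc
Sdha: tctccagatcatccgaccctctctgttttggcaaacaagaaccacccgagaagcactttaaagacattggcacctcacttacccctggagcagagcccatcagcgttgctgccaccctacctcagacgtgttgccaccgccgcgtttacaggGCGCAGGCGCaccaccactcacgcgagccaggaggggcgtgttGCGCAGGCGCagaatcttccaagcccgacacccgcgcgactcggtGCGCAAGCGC
Cox6a1: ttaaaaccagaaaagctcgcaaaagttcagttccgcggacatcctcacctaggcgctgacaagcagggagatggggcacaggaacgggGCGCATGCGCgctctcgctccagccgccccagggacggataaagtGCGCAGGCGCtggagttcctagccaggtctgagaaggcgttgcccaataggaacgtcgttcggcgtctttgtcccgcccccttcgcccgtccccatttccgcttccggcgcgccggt
Atp5g2: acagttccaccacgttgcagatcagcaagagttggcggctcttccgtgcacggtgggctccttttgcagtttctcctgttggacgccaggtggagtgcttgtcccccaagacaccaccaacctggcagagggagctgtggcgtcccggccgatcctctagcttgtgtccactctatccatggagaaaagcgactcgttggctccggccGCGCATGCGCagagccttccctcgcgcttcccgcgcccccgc
Sdha held 3 matches, the nearest directly before the start and the farthest 88 bases from it. Cox6a1 held 2 matches, 107 and 152 bases from the start, and ETS letters 9 bases from it, and the single matches of Ndufa8 and Atp5g2 lay 20 and 32 bases from the start. The median log2 difference between rCPS1 and rTF was -0.042 for the members with NRF1 letters and -0.062 for the searched members without them. It was -0.0825 with and -0.0488 without ETS letters, the opposite order, and these medians were not tested against each other.

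Values are log2 levels after RMA, and a difference is the mean of the rCPS1 arrays minus the mean of the rTF arrays, so a negative value is a lower mean with rCPS1. No member passed the test: 0 of 89 had an adjusted p under 0.05 (limma, Benjamini-Hochberg over all genes), against 0% of the 22180 genes, where the smallest adjusted p was 0.862. Without adjustment, 0 of 89 members had p under 0.05, against 4.67% of all genes (1035 genes), and the smallest p of a member was 0.063. In 0 of 89 members did the groups fail to overlap, against 2.92% of all genes (648 genes). Of the members 55 had a lower and 34 a higher mean with rCPS1, and the median difference was -0.048, against -0.018 over all genes. The share with a lower mean was 61.8%, against 54.4% of all genes. It was 71.9% (64 of 89) after quantile normalization of the deposited values, against 56.7% of all genes on that scaling.

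The intervals show how large a difference these samples could hide. They rest on variation that may be technical, so they do not bound a difference between treated mice. Estimated differences ran from -0.34 (Ndufaf1) to 0.17 (Ndufaf2), at most 1.27-fold, and intervals reached further, to -0.92 for Atp5g1. In 76 of 89 members (85.4%) the 95% confidence interval lay within 0.5 log2 units on either side of 0, a 1.41-fold difference, against 57.5% of all genes. Among genes whose level reached the median of the array's rows it was 89.7% of 78 members against 61.2%. The 13 members with wider intervals were Ndufa7, Ndufs7, Ndufv3, Ndufaf1, Ndufaf8, Uqcrq, Cox7b, Cox7c, Cox4i2, Cox6b2, Cox8b, Ndufa4l2 and Atp5g1. A p that misses the threshold does not show equal levels, and in bulk RNA fewer cells of a type and less RNA per cell cannot be told apart. The plot of differences by complex shows every estimate with its interval.

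**Figure D1:**
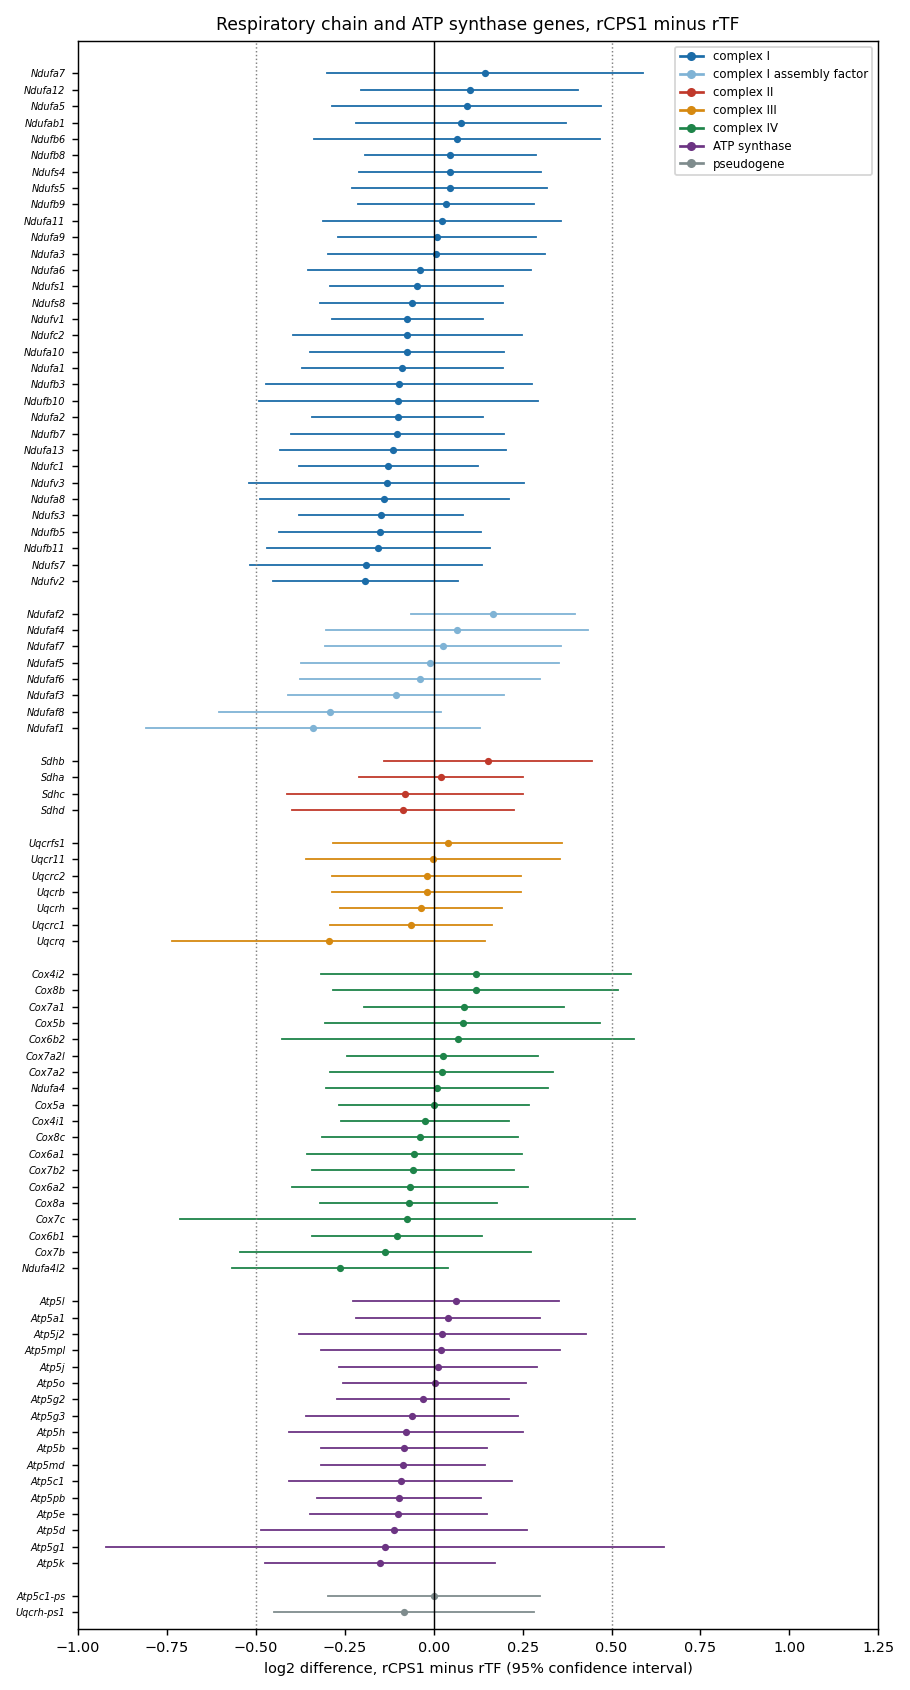
Difference in log2 level between rCPS1 and rTF (x axis, 4 arrays a group) for each of the 89 members (y axis), grouped and coloured by complex, with points for the estimate and lines for the 95% confidence interval from limma. Every interval includes 0, and 76 of 89 lie between the dotted lines at 0.5 log2 units on either side.

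Complex I takes electrons from NADH. Its 32 measured subunits had a mean level of 6.55 ± 0.10 on the rTF arrays and 6.51 ± 0.092 on the rCPS1 arrays (mean over subunits, SD over arrays, n = 4). A lower mean with rCPS1 was found in 20 and a higher mean in 12, with a median difference of -0.074. All 6 core subunits measured, those that carry the flavin and iron-sulphur clusters or line the path to ubiquinone, had a lower mean with rCPS1, with a median difference of -0.11. The 26 accessory subunits were divided 14 lower to 12 higher, with a median of -0.057, and 17 to 9 after quantile normalization. Without rTF 2 they were 12 lower to 14 higher (median 0.013), and without rTF 3 they were 20 to 6. The direction of the 6 core subunits was kept in each of the 15 alternative analyses, although none of the 6 passed the test (smallest adjusted p = 0.98, limma). The filter on dim rows, trended or robust variance, the replicate block and the averaging of rows could not change this direction.

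Ndufv2, an iron-sulphur subunit of the NADH-oxidising arm (row 17346802), measured 7.65, 7.75, 7.39 and 7.50 on rTF arrays 1 to 4 and 7.48, 7.36, 7.42 and 7.26 on rCPS1 arrays 1 to 4. In 3 rTF samples the level was above every rCPS1 sample, and rTF 3 lay within the rCPS1 range. The means were 7.57 ± 0.16 and 7.38 ± 0.095 (SD, n = 4), a difference of -0.19 ± 0.12 (SE; 95% interval -0.45 to 0.067; adjusted p = 0.98). Ndufs7 encodes the iron-sulphur subunit next to the ubiquinone site (row 17235268). It measured 7.63, 7.75, 7.19 and 7.54 with rTF and 7.55, 7.30, 7.15 and 7.34 with rCPS1, a difference of -0.19 ± 0.15 (SE; adjusted p = 0.98). rTF 3 and rCPS1 3 were the low samples, and the groups overlapped. Ndufs3, a subunit of the arm that leads to ubiquinone (row 17388074; named after its values were seen), measured 4.87, 4.96, 4.84 and 4.99 with rTF and 4.78, 4.85, 4.81 and 4.62 with rCPS1. Only rCPS1 2 reached into the rTF range, and the difference was -0.15 ± 0.10 (SE; adjusted p = 0.98).

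Ndufv1, which binds NADH and flavin (row 17361056), had the smallest standard error of the complex I subunits. Its levels were 7.32, 7.24, 7.28 and 7.29 with rTF and 7.22, 7.19, 7.28 and 7.15 with rCPS1, a difference of -0.074 ± 0.095 (SE). A single rCPS1 sample, rCPS1 3, lay inside the rTF range. Ndufs1, the largest iron-sulphur subunit, measured 6.85, 7.06, 6.83 and 6.99 against 6.82, 6.89, 7.02 and 6.79, and the groups were interleaved (-0.048 ± 0.11). Ndufs8, another iron-sulphur subunit of the arm that leads to ubiquinone, differed by -0.062 ± 0.11.

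Among the accessory subunits, Ndufa7 had the largest positive difference. It measured 5.21, 4.74, 5.06 and 5.0 with rTF and 5.64, 5.26, 4.66 and 5.04 with rCPS1 (0.14 ± 0.20, SE; adjusted p = 0.98). rCPS1 samples gave both the highest and the lowest level of the 8. Ndufb11, a membrane-arm subunit named after its values were seen, gave -0.16 ± 0.14. Ndufb6, also of the membrane arm and named after its values were seen, ranged from 4.72 (rTF 3) to 5.57 (rTF 4) within the rTF group alone. The spread among these 4 arrays, 0.375 (SD), was the widest of any complex I subunit in the rTF group.

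The complex I assembly factors help to build the enzyme and are not part of the finished complex. Of the 8 measured, 5 had a lower and 3 a higher mean with rCPS1 (6 and 2 after quantile normalization), with a median difference of -0.024. Without rTF 2 the division was 3 lower to 5 higher (median 0.062), and without rTF 3 it was 7 to 1. This set held both the largest negative and the largest positive difference of all members. Ndufaf1, which helps to assemble the membrane arm (row 17389928), measured 5.98, 5.41, 5.57 and 5.06 with rTF and 5.28, 5.55, 4.97 and 4.87 with rCPS1. The samples of each group spanned more than 0.6 log2 units and overlapped, and the difference was -0.34 ± 0.21 (SE; 95% interval -0.81 to 0.13; adjusted p = 0.98). Ndufaf8 (row 17259264), which acts together with the assembly factor Ndufaf5 and was named after its values were seen, measured 6.30, 5.93, 5.76 and 6.04 with rTF. With rCPS1 it measured 5.70, 5.81, 5.51 and 5.83. In 3 rTF samples it was above every rCPS1 sample, and rTF 3 was the exception. The difference of -0.29 ± 0.14 (SE; 95% interval -0.60 to 0.019) had the smallest unadjusted limma p of the members (given above). Ndufaf2, a late-stage chaperone (row 17296104), measured 4.09, 4.27, 4.20 and 4.08 with rTF and 4.35, 4.23, 4.41 and 4.31 with rCPS1. Of the rCPS1 samples, 3 were above every rTF sample, and the difference was 0.17 ± 0.10 (SE; adjusted p = 0.98).

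Complex II, succinate dehydrogenase, also belongs to the tricarboxylic acid cycle and is the only complex here with no mitochondrially encoded subunit. Its mean level was 7.97 ± 0.17 with rTF and 7.97 ± 0.098 with rCPS1 (SD, n = 4), and its 4 subunits were divided 2 lower to 2 higher (1 to 3 without rTF 2, 3 to 1 without rTF 3). Sdha, the catalytic flavoprotein (row 17294377), measured 8.93, 9.08, 8.83 and 9.06 with rTF and 8.99, 9.02, 9.01 and 8.96 with rCPS1. All rCPS1 samples lay inside the rTF range, and the difference was 0.020 ± 0.10 (SE). Sdhb carries the iron-sulphur clusters that pass electrons on from Sdha (row 17420897). It measured 6.99, 7.16, 6.63 and 7.02 with rTF and 7.20, 7.01, 7.13 and 7.06 with rCPS1 (0.15 ± 0.13, SE; adjusted p = 0.98). rTF 3 was the low sample, below every other array. The membrane anchors Sdhc and Sdhd differed by -0.081 ± 0.15 and -0.086 ± 0.14 (SE).

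Complex III passes electrons from ubiquinol to cytochrome c. Its 7 measured subunits had a mean level of 7.42 ± 0.12 with rTF and 7.37 ± 0.055 with rCPS1 (SD, n = 4), 6 lower and 1 higher with rCPS1, with a median difference of -0.020. Single arrays set this division: it was 3 lower to 4 higher without rTF 4 (median 0.0085), 4 to 3 without rTF 2 and 7 to 0 without rTF 3. Uqcrc1, a core protein of the matrix side, measured 8.96, 8.96, 8.81 and 8.90 with rTF and 8.96, 8.86, 8.74 and 8.82 with rCPS1 (-0.064 ± 0.10, SE). The groups overlapped, and the other core protein, Uqcrc2 (named after its values were seen), differed by -0.020 ± 0.12. Uqcrfs1, the Rieske iron-sulphur protein, was the only member of complex III with a higher mean. It measured 5.71, 5.78, 5.18 and 5.60 with rTF and 5.66, 5.48, 5.67 and 5.62 with rCPS1 (0.039 ± 0.14, SE), and rTF 3 was the lowest of the 8. Uqcrq, a small subunit that binds near cytochrome b (row 17262650), had the largest difference of the complex. It measured 5.84, 5.60, 5.68 and 5.19 with rTF and 5.57, 5.17, 4.83 and 5.55 with rCPS1. Both groups spread widely and overlapped, and the difference was -0.30 ± 0.20 (SE; 95% interval -0.74 to 0.14; adjusted p = 0.98). Uqcrh, the hinge protein at the cytochrome c docking side, differed by -0.035 ± 0.10.

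**Figure D2:**
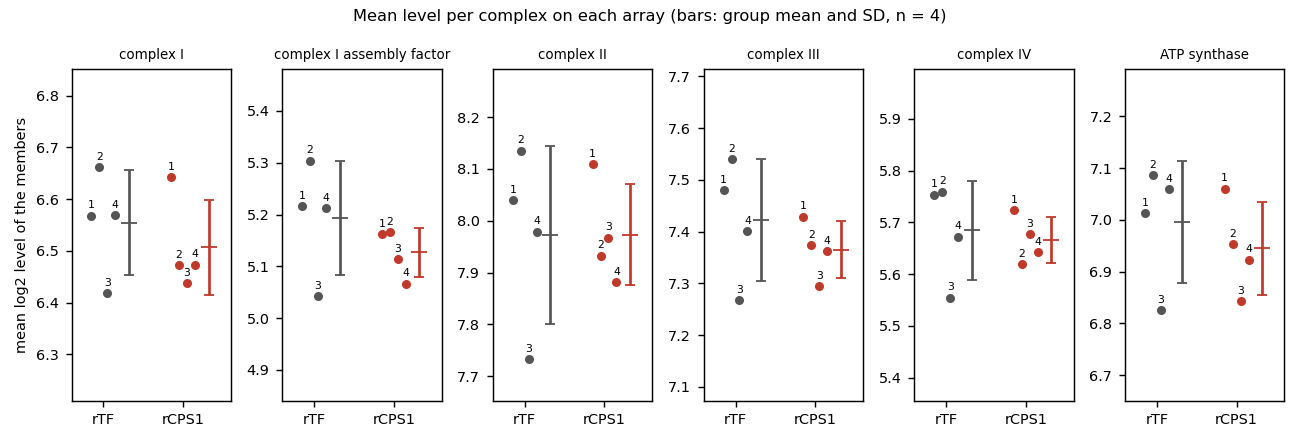
Mean log2 level of the members of each complex (y axes, separate scales that do not start at 0) on each array (points, labelled by replicate) for rTF and rCPS1, with the group mean and SD (bars, n = 4). The groups overlap in every panel, and rTF 3 is the lowest of the 8 arrays in each, for example at 6.42 in complex I and 7.73 in complex II.

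Complex IV, cytochrome c oxidase, reduces oxygen to water. Its 11 widely expressed nuclear subunits, Ndufa4 included, were divided 6 lower to 5 higher with rCPS1 (8 to 3 after quantile normalization), with a median difference of -0.025. Without rTF 1 the division was 4 lower to 7 higher (median 0.0025), without rTF 4 it was 5 to 6, and without rTF 3 it was 11 to 0 (median -0.085). Cox4i1, the subunit that contacts the catalytic core (row 17506273), measured 8.42, 8.15, 8.38 and 8.42 with rTF and 8.31, 8.37, 8.28 and 8.29 with rCPS1. rTF 2 was the low sample and the rCPS1 samples lay between it and the other rTF samples (-0.025 ± 0.11, SE). Cox5a, which binds a thyroid hormone metabolite at the matrix side, had a mean of 8.47 in both groups (0.00018 ± 0.12, SE). Its sign turned under quantile normalization (-0.014) and array weights (-0.030). Cox5b, the zinc-binding subunit, measured 7.77, 8.00, 7.43 and 8.30 with rTF and 7.95, 7.88, 8.08 and 7.92 with rCPS1 (0.081 ± 0.17, SE). The rCPS1 samples were close together, whereas the rTF samples spread over 0.868 log2 units. The array has 2 rows for Cox5b, the other of which lay below the median of all rows, and whether the row used measures the gene or a near-identical copy was not tested.

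Cox6a1, Cox6b1, Cox7a2 and Cox8a are the widely expressed forms of subunits that have a second, tissue-restricted form. Cox6a1 measured 11.95, 11.72, 11.63 and 11.64 with rTF and 11.95, 11.67, 11.44 and 11.66 with rCPS1. The first array of both groups gave its highest levels, and the difference was -0.054 ± 0.14 (SE). Cox6b1 differed by -0.10 ± 0.11, Cox8a by -0.070 ± 0.11 and Cox7a2 by 0.023 ± 0.14. Cox7a2l, which takes part in joining complexes III and IV, differed by 0.025 ± 0.12 (-0.013 after quantile normalization), and Ndufa4, a late-added subunit once assigned to complex I, by 0.0093 ± 0.14. Cox7b and Cox7c, small subunits of the membrane part (Cox7c was named after its values were seen), differed by -0.14 ± 0.18 and -0.075 ± 0.29. Cox7c lay below the median of all array rows and ran from 2.55 (rTF 3) to 3.76 (rTF 1) within the rTF group.

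Of the 8 restricted forms of complex IV subunits, 4 had a lower and 4 a higher mean with rCPS1. Cox4i2, Cox7a1, Cox7b2, Cox8b, Cox8c and Ndufa4l2 lay below the median of all array rows (3.60), and how far they stood above background was not measured. The heart and muscle form Cox6a2 did not: it measured 6.05, 6.30, 6.16 and 6.01 with rTF and 6.34, 5.69, 6.14 and 6.09 with rCPS1 (-0.067 ± 0.15, SE). All 8 samples were above that median, and rCPS1 samples gave both its highest and its lowest level. Of 8 muscle marker genes, 6 lay below the median of all rows, and their mean ran from 2.98 to 3.32 on the rTF arrays and from 2.94 to 3.24 on the rCPS1 arrays. The testis form Cox6b2 was also above the median and differed by 0.069 ± 0.22. Ndufa4l2, known as a hypoxia-induced paralogue of Ndufa4 (row 17238054), measured 3.33, 3.38, 3.06 and 2.90 with rTF and 2.87, 2.91, 3.06 and 2.77 with rCPS1. The difference was -0.26 ± 0.14 (SE; 95% interval -0.57 to 0.040; adjusted p = 0.98), with rTF 1 and rTF 2 the high samples. Cox4i2, another form known to respond to low oxygen, differed in the other direction by 0.12 ± 0.20, and the muscle forms Cox7a1 and Cox8b by 0.086 ± 0.13 and 0.12 ± 0.18. Cox7b2 and Cox8c, forms known from testis, differed by -0.058 ± 0.13 and -0.039 ± 0.12.

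ATP synthase had a mean level of 7.0 ± 0.12 with rTF and 6.95 ± 0.090 with rCPS1 (17 subunits, SD, n = 4). A lower mean with rCPS1 was found in 11 and a higher mean in 6, with a median difference of -0.079. After quantile normalization 14 were lower and 3 higher, and with a gene's rows averaged 9 were lower and 8 higher (median -0.019). In the catalytic F1 part, 4 of 5 subunits had a lower mean, with a median of -0.093, and 3 of 5 with a gene's rows averaged (median -0.019). Atp5b, the catalytic beta subunit (row 17238278), measured 11.04, 11.18, 10.95 and 10.99 with rTF and 11.07, 10.91, 10.91 and 10.93 with rCPS1. Of the rCPS1 samples, 3 were below every rTF sample and rCPS1 1 was within the rTF range (-0.083 ± 0.10, SE; adjusted p = 0.98). Atp5a1, the alpha subunit, was the F1 gene with a higher mean. It measured 10.45, 10.58, 10.28 and 10.54 with rTF and 10.51, 10.42, 10.67 and 10.41 with rCPS1 (0.040 ± 0.12, SE), with rTF 3 lowest and rCPS1 3 highest. Atp5c1, the gamma subunit of the rotating shaft, differed by -0.093 ± 0.14.

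The c-ring turns as protons pass, and 3 genes encode the same mature ring protein. All 3 had a lower mean with rCPS1, by small amounts, and 1 of 3 did without rTF 1 or without rCPS1 3. Atp5g2 measured 9.82, 9.72, 9.60 and 9.71 with rTF and 9.82, 9.75, 9.59 and 9.58 with rCPS1 (-0.030 ± 0.11, SE), and Atp5g3 6.93, 6.60, 6.43 and 6.60 against 6.71, 6.47, 6.68 and 6.45 (-0.061 ± 0.13). The samples of both groups were interleaved in each gene. For Atp5g2, which has 2 rows, whether the row used measures the gene whose promoter is printed or a near-identical copy was not tested. Atp5g1 lay below the median of all rows and varied most, at 3.07, 3.21, 2.69 and 4.06 with rTF and 3.21, 3.61, 2.17 and 3.50 with rCPS1 (-0.14 ± 0.35, SE). The stalk that holds the catalytic head was divided 2 to 2. It was 4 lower to 0 higher after quantile normalization and 1 to 3 with a gene's rows averaged. The stalk subunit Atp5h, named after its values were seen, differed by -0.079 ± 0.15. Of the 5 small membrane subunits, 2 had a lower and 3 a higher mean (3 and 2 after quantile normalization). Atp5k, known from dimers of the enzyme, differed by -0.15 ± 0.15, Atp5l, of the membrane part, by 0.063 ± 0.13, and Atp5md, a small subunit associated with dimers, by -0.087 ± 0.10 (SE).

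The pseudogenes Atp5c1-ps and Uqcrh-ps1 lay below the median of all rows and differed by 0.0018 ± 0.13 and -0.083 ± 0.16. Many genes of these families have near-identical processed copies in the genome, and how far a row's probes also match such copies was not tested, for Atp5g2, Atp5h and Cox5b among others. For 9 members the array had 2 rows. The other row differed in the same direction in 3 of the 9 and in the opposite direction in 6. Save for Atp5g2, the other rows were low, with means from 2.95 (Ndufa12) to 4.27 (Atp5d), and 3 lay below the median of all rows (3.60). Averaging a gene's rows gave these low rows equal weight. Atp5g2 gave -0.030 on the row used and -0.018 on the other, whose mean was 8.55. Atp5h gave -0.079 on the row used and 0.20 on the other, whose mean was 4.22 against 10.15, so which row stands for the gene set its sign. Cox7b likewise gave -0.14 and 0.18, the latter on a row with a mean of 3.28, below the median of all rows. For Atp5d, a subunit of the F1 shaft, the rows gave -0.11 and 0.13, and on the other row rCPS1 1 (5.49) stood above the remaining rCPS1 samples (3.59 to 4.46).

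Within a group, single arrays stood low or high across many members at once. Among the 78 members at or above the median of all rows, rTF 3 was below the gene's own mean over the 8 arrays in 65 (83.3%), against 53.2% of the 12384 such genes. It was the lowest of the 8 arrays in 22 members (28.2%, against 14.1% of genes), and its median deviation was -0.14. rTF 2 was below the gene's own mean in 10 members (12.8%, against 40.7% of genes), with a median deviation of 0.11. By complex, rTF 3 was below the mean in 26 of 32 complex I subunits, 4 of 4 in complex II, 6 of 7 in complex III, 9 of 12 in complex IV and 14 of 15 in ATP synthase. Within the rCPS1 group, rCPS1 1 was below the gene's own mean in 18 of the 78 members (23.1%, against 44.6% of genes). It was above that mean in 24 of 32 complex I subunits. The lowest array was rCPS1 3 in 25 of the 78 members (32.1%, against 18.6% of genes). Without rTF 3, 74 of 89 members had a lower mean with rCPS1 and the median difference was -0.089. Without rTF 2, 50 did and the median was -0.0074. The members are transcripts of the same 8 samples and not independent of each other.

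**Figure D3:**
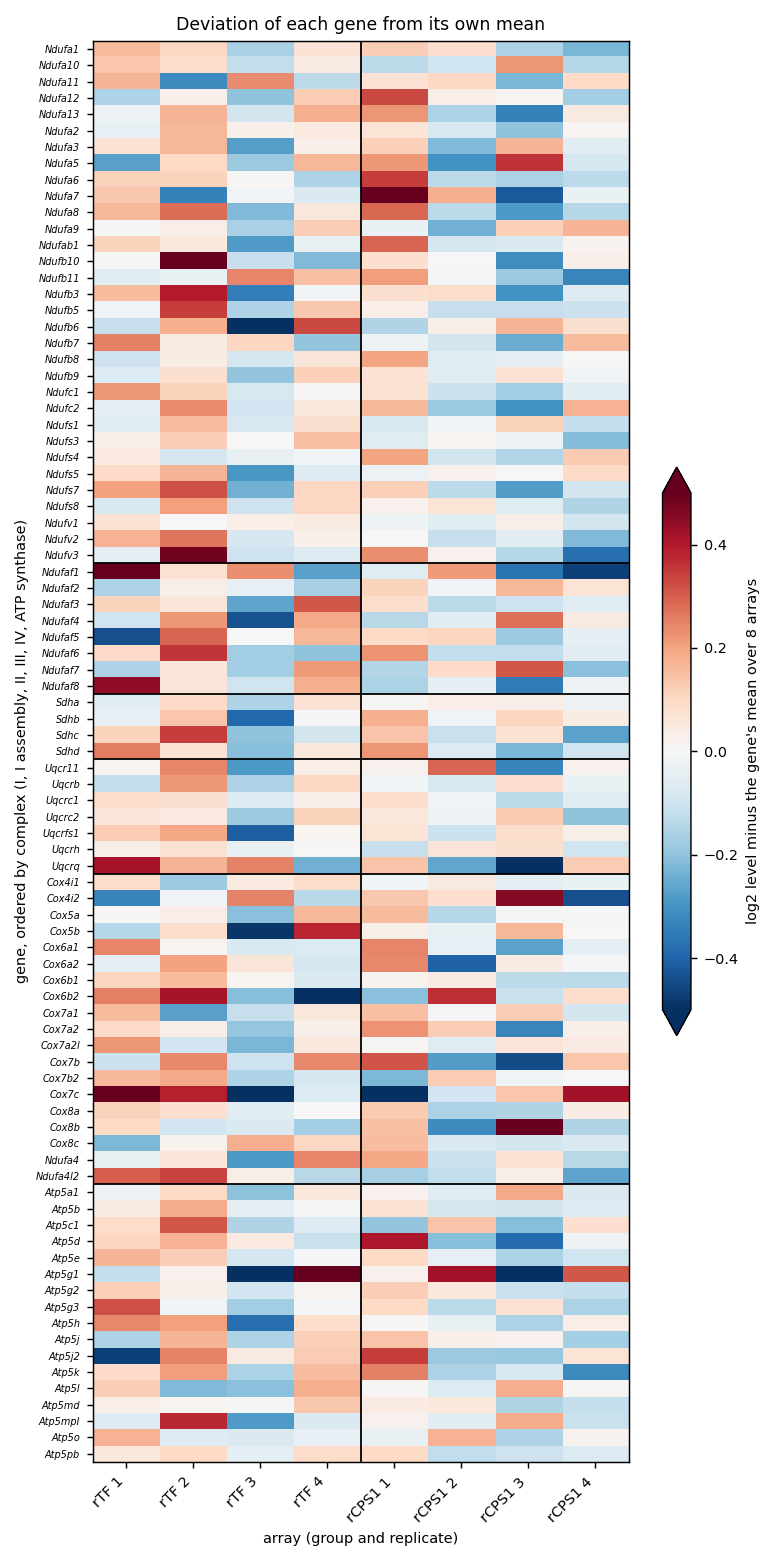
Deviation of each gene's log2 level from its own mean over the 8 arrays (colour) for the members other than pseudogenes (y axis, ordered by complex) on each array (x axis, rTF then rCPS1). The rTF 3 column is mostly blue, below the gene's mean, and the rTF 2 column mostly red.

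Markers of cell types were followed on the same arrays. The 11 Kupffer cell markers, genes of resident liver macrophages, were all above the median of all rows. Their mean ran from 8.93 to 9.41 on the rTF arrays and from 9.02 to 9.63 on the rCPS1 arrays. A higher mean with rCPS1 was found in 10 of 11, with 0 at an unadjusted limma p under 0.05. Cdh5 is on this list and on the sinusoidal endothelial list. Monocyte markers (9 of 10 measured) ran from 8.60 to 9.01 with rTF and from 7.96 to 8.16 with rCPS1, 9 of 9 lower with rCPS1. Neutrophil markers (10 of 10) ran from 5.88 to 6.71 with rTF and from 4.75 to 5.57 with rCPS1, 10 of 10 lower. Of these, 7 monocyte and 8 neutrophil genes had an unadjusted limma p under 0.05 in that direction (2.79% of all genes) and 0 an adjusted p under 0.05. On rTF 3 the monocyte mean was the highest of the 8 arrays (9.01) and the Kupffer mean the lowest (8.93). T and NK cell markers (10 of 12 measured) were 9 of 10 lower with rCPS1, and 3 of 10 (Nkg7, Il7r and Cd5) had an unadjusted limma p under 0.05, but 0 of 10 without rTF 2 or without rCPS1 4. On rTF 2 their mean was the highest (7.24, the other arrays 5.81 to 6.38). Hepatocyte markers ran from 7.21 to 7.84 with rTF, highest on rTF 3, and from 7.06 to 7.70 with rCPS1. Sinusoidal endothelial markers ran from 11.22 to 11.39 and from 11.27 to 11.42, B cell markers from 5.44 to 6.31 and from 5.37 to 6.63. The B cell markers were 6 of 6 higher with rCPS1, and 2 of 6 without rCPS1 1. The part of these cell types in the members' values was not tested.

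**Figure D4:**
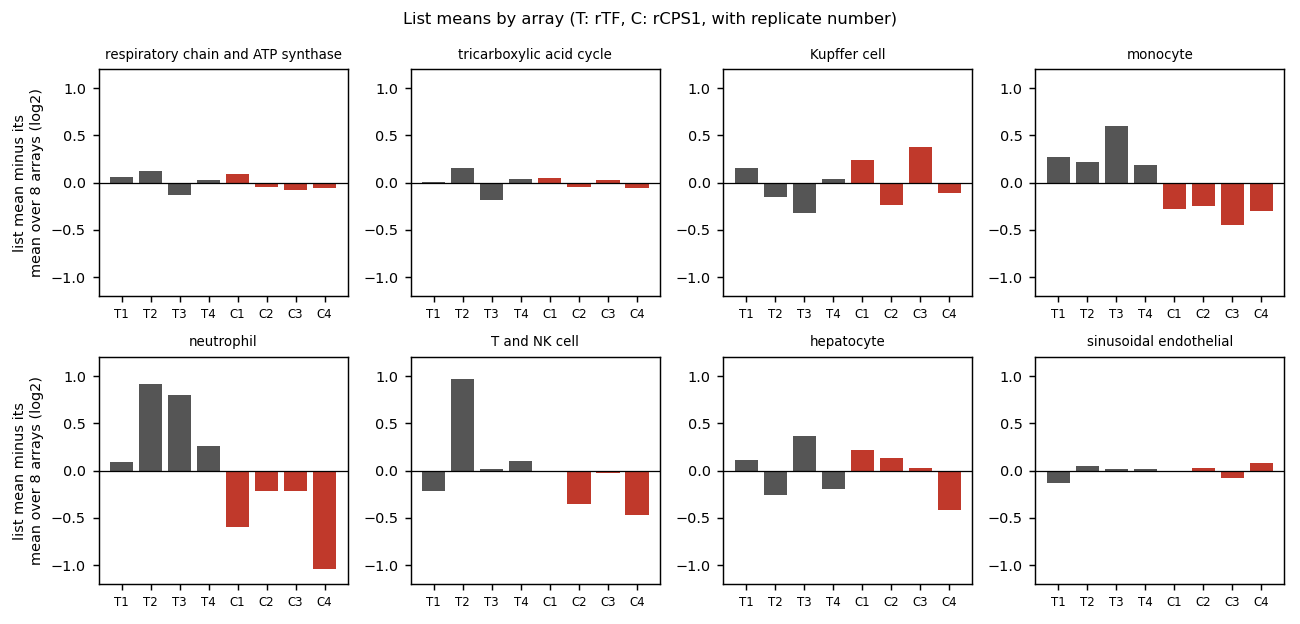
Mean log2 level of the members at or above the median of all rows, of the tricarboxylic acid cycle list and of 6 cell type marker lists on each array, minus the list's own mean over the 8 arrays (y axis, log2 units; T is rTF and C is rCPS1, with the replicate number). The respiratory members and the tricarboxylic acid cycle list are both lowest on rTF 3, and the monocyte and neutrophil lists separate the groups.

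Genes next to the respiratory chain were followed on lists of their own. Of 17 tricarboxylic acid cycle genes (18 named), which supply NADH and succinate, 10 had a lower and 7 a higher mean with rCPS1, with a median difference of -0.037. Without rTF 2 this turned to 7 lower and 10 higher (median 0.035), and without rTF 3 it was 13 to 4 (median -0.090). The list mean was lowest on rTF 3 (7.91) and highest on rTF 2 (8.24). Idh3g, a subunit of isocitrate dehydrogenase, differed by -0.16 ± 0.11 and Suclg2, a subunit of succinyl-CoA synthetase, by 0.12 ± 0.18. Dlst, the succinyltransferase of the 2-oxoglutarate dehydrogenase complex, was chosen after its values were seen. It measured 8.51, 8.61, 8.47 and 8.44 with rTF and 8.42, 8.31, 8.41 and 8.36 with rCPS1 (-0.13 ± 0.099, SE; adjusted p = 0.98). Its groups did not overlap, with every rCPS1 sample below every rTF sample, as in 1.97% of all 22180 genes.

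Electron carriers and other entry points to ubiquinone were divided 5 to 5 (10 of 11 measured), with Dhodh, of pyrimidine synthesis, at -0.20 ± 0.12 and Sqor, which oxidises sulphide, at 0.13 ± 0.15. Of 12 coenzyme Q synthesis genes (15 named), which make the ubiquinone that links the complexes, 9 had a higher and 3 a lower mean, with a median of 0.11. Unadjusted limma p was under 0.05 for 2 of the 12, both higher with rCPS1 (1.88% of all genes), and the adjusted p was under 0.05 for 0. The unadjusted count higher with rCPS1 was 1, Coq3, with array weights and without rTF 1, rTF 3, rCPS1 2, rCPS1 3 or rCPS1 4. Coq3, a methyltransferase of the pathway, measured 4.87, 4.59, 4.83 and 4.83 with rTF and 5.42, 5.48, 5.34 and 5.28 with rCPS1. Every rCPS1 sample was above every rTF sample, as in 0.947% of all genes, and the difference was 0.60 ± 0.11 (SE; adjusted p = 0.862). Coq2, which attaches the side chain, measured 3.61, 4.47, 3.98 and 4.67 with rTF and 4.49, 4.76, 4.76 and 4.95 with rCPS1 (0.56 ± 0.22, SE; adjusted p = 0.98). Its groups overlapped. Coq10a, a coenzyme Q binding protein, differed by -0.36 ± 0.17, with an unadjusted limma p under 0.05 with array weights, after quantile normalization and without rTF 3 or rCPS1 3.

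Assembly factors outside the name rule (37 of 40 measured) were divided 21 lower to 16 higher, with 1 of 37 at an unadjusted limma p under 0.05, against 4.67% of all genes. Without rTF 2 they were divided 15 lower to 22 higher. The gene was Foxred1, a complex I assembly factor, which measured 7.60, 7.39, 7.63 and 7.70 with rTF and 7.75, 7.92, 7.94 and 7.84 with rCPS1. The groups did not overlap, as in 0.947% of all genes in that direction, and the difference was 0.28 ± 0.11 (SE; adjusted p = 0.98). Without rTF 2, rCPS1 2 or rCPS1 3, or with a replicate block, the unadjusted limma p of Foxred1 was not under 0.05. Lyrm7, which helps to insert the Rieske protein, differed by 0.33 ± 0.16 but lay below the median of all rows, and Sdhaf1, for the iron-sulphur subunit of complex II, by -0.28 ± 0.13. After quantile normalization, among other alternatives, Sdhaf1 had an unadjusted limma p under 0.05, as did 5% of all genes on that scaling. Carriers of ATP, ADP and phosphate (8 of 10 measured) were divided 4 to 4, with Slc25a31, an ADP/ATP carrier known from testis, at -0.27 ± 0.18 and the outer-membrane channel Vdac2 at 0.069 ± 0.11. Of 12 regulators of mitochondrial biogenesis, 7 had a higher and 5 a lower mean, with a median of 0.014. Gabpb1, a subunit of GABP, differed by -0.24 ± 0.13 and Esrra, a nuclear receptor that activates oxidative genes, by 0.17 ± 0.13. In each of these lists the adjusted limma p was under 0.05 for 0 genes.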

How the data were processed

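Total RNA (extracted with Qiagen RNeasy; 400 ng converted to biotinylated cDNA with the GeneChip WT Plus kit, as the labels' protocols state) from hepatic macrophages was measured on 8 Affymetrix arrays, 4 for each protein. The deposited values are log2 levels, which the authors made with RMA, per the submitters' processing notes; these name limma too and give no versions. RMA scales the arrays to each other, so a shift shared by most genes would not show. How the cells were isolated, the time from acetaminophen to isolation and the genome build of the array are not given in the sources used here. Their number, 4 a group, limits the precision.

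Of 41345 rows, 23521 had 1 gene symbol in the platform annotation, 1814 several and 16010 none. By Entrez ID 23328 matched the RefSeq gene table (GRCm38.p6), which changed 0 symbols. The 1082 genes with more than 1 row were represented by the row of highest mean. Array medians were 3.55 to 3.68, and 0 pairs of arrays held equal values. Samples were grouped and numbered by their titles. The labels give no batch.

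All 22180 genes were compared with limma 3.58.1 (R 4.3.3; lmFit and eBayes, two-sided, no covariate, Benjamini-Hochberg adjustment at 0.05), tested on simulated data. A gene is called overlapping unless every array of 1 group is above every array of the other. The members and lists were chosen with earlier results of these data known. Members named with values are the largest difference in each direction and the smallest standard error of each complex, catalytic or core subunits and sets of isoforms. From each list the largest difference in each direction and genes at an unadjusted p under 0.05 are named. Others are said to be named after their values were seen, save Ndufs8, named to complete the core subunits, and Atp5d, named for its second row; these were chosen after their values were seen too. Alternatives were a filter on dim rows, trended or robust variance, array weights (statmod 1.5.0), a replicate block, quantile normalization, averaging a gene's rows, and each array left out.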

Additional observations from a re-analysis of the deposited data

Results flagged for a closer look

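In 12 of 220 groups of 4 samples, 1 sample lay apart from the other 3 by more than Dixon's 95% critical value for 4 values. The values looked at were the members, the named genes of the other lists and the means of the complexes and assembly factors. Chance gives about 1 in 20, here 11.0. The sample apart was rCPS1 1 in 4 of the 12, rCPS1 3 in 4, rTF 2 in 3 and rTF 1 in 1.

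In complex I, Ndufa6 stood at 7.62 on rCPS1 1 (the other rCPS1 samples 7.11 to 7.14) and Ndufb5 at 6.39 on rCPS1 1 (6.24 in each of the others). Ndufa10 stood at 9.05 on rCPS1 3 (8.69 to 8.73), Ndufa11 at 7.74 on rCPS1 3 (8.04 to 8.07) and Ndufv3 at 6.08 on rTF 2 (5.50 to 5.55). These are accessory subunits.

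In complex IV, Cox4i1 stood at 8.15 on rTF 2 (8.38 to 8.42) and Cox8c, below the median of all rows, at 2.09 on rCPS1 1 (1.85 to 1.87). In ATP synthase, Atp5b stood at 11.07 on rCPS1 1 (10.91 to 10.93) and Atp5o, of the stalk, at 4.56 on rTF 1 (4.32 to 4.35). The pseudogene Atp5c1-ps stood at 1.30 on rCPS1 3 (1.48 to 1.49) and Uqcrh-ps1 at 3.13 on rCPS1 3 (2.76 to 2.79). Outside the members, Coq3 stood at 4.59 on rTF 2 (4.83 to 4.87), and every rCPS1 sample remained above every rTF sample. No cause was tested.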

How the results depend on the processing

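Under the 15 alternatives, 8 of which left out 1 array, no gene of the array and no member had an adjusted p under 0.05 (limma; smallest 0.246, without rTF 1). At an unadjusted p under 0.05, 0 members stood lower in the analysis reported, 1 after quantile normalization (Ndufaf8) and 0 to 2 with 1 array left out. The 2 without rTF 3 were Ndufaf8 and Ndufs7, and the 2 without rTF 4 were Ndufa4l2 and Ndufaf1. No member stood higher at that level in any setting. Over all genes the share at that level was 4.67% in the analysis reported, 5% after quantile normalization, 5.01% without rTF 3 and 4.67% without rTF 4, so 1 or 2 of 89 members is at or below it. Leaving out 1 array of 4 cannot move a mean difference by more than the spread between replicates. Trended or robust variance and the replicate block do not change it at all. In the remaining settings the mean difference of each complex moved by less than that spread. With 1 array left out it ran from -0.093 to -0.012 for complex I, -0.12 to -0.029 for its assembly factors, -0.079 to 0.056 for complex II, -0.11 to -0.018 for complex III, -0.063 to 0.0058 for complex IV and -0.11 to -0.017 for ATP synthase. The replicate numbers did not pair the samples: same-numbered arrays correlated at -0.124, -0.0331, -0.00531 and 0.0251 in their deviations, and a replicate block called 0 genes and left 997 at an unadjusted p under 0.05 (1035 without it).

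Of 67 single genes followed, 38 kept their sign in all 15 alternatives and 29 did not. Trended or robust variance, the replicate block and the filter on dim rows, which removes dim genes, could not turn a sign. None of the 29 differed by more than 0.14 log2 units in the analysis reported. Array weights gave -0.030 for Cox5a, -0.011 for Cox5b, -0.037 for Ndufa4 and -0.012 for Ndufb6, quantile normalization -0.014 for Cox5a and -0.013 for Cox7a2l, and the mean of all rows 0.022 for Cox7b and 0.059 for Atp5h. With 1 array left out, the lowest and highest differences were Cox5a (-0.069 to 0.056), Cox5b (-0.068 to 0.22), Ndufa4 (-0.085 to 0.093), Ndufb6 (-0.098 to 0.19), Cox7a2l (-0.047 to 0.10), Atp5g2 (-0.076 to 0.0051), Atp5g3 (-0.13 to 0.036), Cox4i1 (-0.089 to 0.0017), Cox6a1 (-0.14 to 0.025). They were Cox7c (-0.32 to 0.12), Atp5c1-ps (-0.069 to 0.11), Sdhc (-0.16 to 0.021), Atp5a1 (-0.022 to 0.079), Cox7a2 (-0.049 to 0.14), Cox8c (-0.12 to 0.015), Sdha (-0.028 to 0.055), Suclg2 (-0.046 to 0.22), Uqcrfs1 (-0.091 to 0.11). For the remaining genes they were Atp5g1 (-0.33 to 0.18), Cox6b2 (-0.12 to 0.22), Uqcrc2 (-0.084 to 0.044), Uqcrh-ps1 (-0.20 to 0.042), Cox7b2 (-0.12 to 0.0077), Ndufa7 (-0.019 to 0.31), Cox6a2 (-0.16 to 0.058), Cox4i2 (-0.014 to 0.28), Cox8b (-0.046 to 0.24). The cause was not tested. Atp5g1 and Cox7c, which are dim, gave wide intervals. Other dim genes, such as Cox7a1, Cox7b2 and Cox8c, had intervals within 0.5 log2 units on either side of no difference. Wide intervals were also found for genes that are not dim, such as Ndufaf1 and Uqcrq.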
